A study of Homo sapiens with 4 samples.

Results

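Transcripts of 8 genes for proteins of the red cell membrane and surface were described in K562 cells after 3 h with clofarabine or DMSO. The members were taken by name from a table of 23615 genes: the glycophorin genes GYPC and GYPB, the anion exchanger gene SLC4A1, the skeleton genes EPB41, EPB42, SPTB and ANK1, and the erythropoietin receptor gene EPOR. All 8 were present, and all 8 passed the filter on low counts. K562 is an established human line from chronic myeloid leukaemia, a single cancer line that carries the BCR-ABL fusion kinase and expresses embryonic and fetal globins, so it is a model of early erythroid features and not of maturing red cells. Clofarabine, a deoxyadenosine analogue that blocks ribonucleotide reductase and DNA polymerases, was given at 5 µM in 0.005% DMSO to 2 samples, here called C0 and C1. The other 2 samples, V0 and V1, received DMSO, the solvent, and all 4 were collected at 3 h. The table names its conditions only as C and V. They were read as clofarabine and vehicle, and every direction below would turn round under the opposite reading.

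The red cell membrane is held by a protein network on its inner face. Spectrin, a long flexible protein, forms the strands. Ankyrin ties beta-spectrin to band 3, the anion exchanger, with protein 4.2 at that contact, and protein 4.1 ties spectrin and actin to glycophorin C. Erythropoietin acts on its receptor through the kinase JAK2 and the transcription factor STAT5, and the genes of the membrane proteins are switched on as erythroid cells mature, many by the factors GATA1 and KLF1.

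Estimated fragments per gene summed to between 8370550 and 23888755 per library, with C1 the deepest and V0 the shallowest. Separate cultures are not named in the labels, so a p-value here reflects only how far these 4 samples differ, a spread that may be technical. The erythroid character of the cells was visible in all 4 libraries, and all 11 erythroid markers were tested. Their summed level per transcript length (FPKM) was between 50012 and 53957 in DMSO and between 48281 and 56759 in clofarabine. Most of that sum came from the globin genes HBE1, HBG2, HBG1 and HBZ. Of the 11 erythroid markers, 10 had negative log2 fold changes (median −0.10), where 5813 of all 11761 tested genes were negative. Of these markers 3 fell and none rose at an edgeR adjusted p under 0.05, by which 1.03% of all tested genes were lower and 1.54% higher. The 3 were NFE2, GATA1 and HBA2, the last nearly identical to HBA1 and so uncertain. NFE2 had the smallest adjusted p of the 3 (log2 fold change −0.37, edgeR adjusted p = 0.00196). The call of HBA2 was lost without V1 (edgeR adjusted p = 0.754). In such bulk samples, fewer cells of a kind and less RNA per cell cannot be told apart. Of the marker genes of megakaryocytes, granulocytes and monocytes, lymphoid cells, and epithelial cells and fibroblasts, 9 of 18 passed the filter and edgeR, DESeq2 and limma-voom called none (1 had an unadjusted edgeR p under 0.05). ELANE and MS4A1 had no fragment in any library, and summed FPKM was between 2.90 and 4.15 for the megakaryocyte list, 3.93 and 5.42 for the granulocyte and monocyte list, 29.5 and 35.9 for the lymphoid list, most of it CD3D, and 356 and 394 for the epithelial and fibroblast list, most of it KRT18.

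The 8 genes were expressed at very different levels, and their order was the same in every library. Per transcript length, GYPC, the gene of glycophorin C, stood highest, between 219 and 262 FPKM over the 4 libraries. GYPB, the gene of glycophorin B, followed at 179 to 194 FPKM. EPB41 (protein 4.1) ranged from 70.7 to 74.4 FPKM, ANK1 (ankyrin-1) from 35.0 to 40.1, SPTB (beta-spectrin) from 22.1 to 23.7 and EPOR from 18.4 to 21.3. The genes of the band 3 contact were low, with SLC4A1 (band 3) between 2.37 and 2.97 FPKM and EPB42 (protein 4.2) between 0.621 and 0.921 FPKM. Of all tested genes, 96.6% were at or below the mean FPKM of GYPC, but only 23.2% at or below that of SLC4A1 and 9.19% at or below that of EPB42. No neighbours in this order overlapped. The place of GYPB depends on its length term. The authors' scaled fragments divided by FPKM give a ratio proportional to the length term behind FPKM, which need not equal the transcript length. It was 4.37 for GYPB, 14.0 for GYPC and 105 for ANK1, and 0.961% of tested genes had a ratio as low as that of GYPB.

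**Figure D1:**
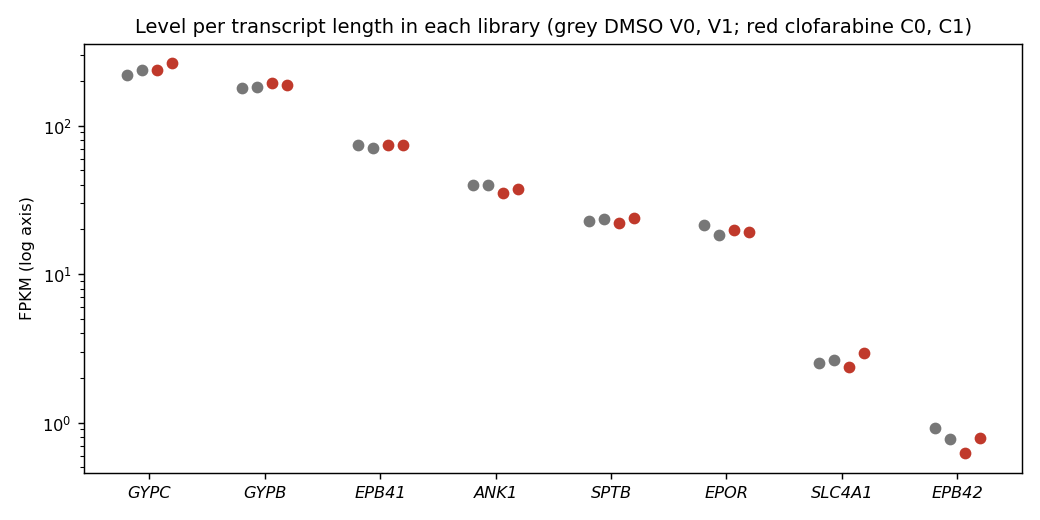
FPKM on a log axis for the 8 genes, ordered by their mean, with 1 point per library (DMSO grey, clofarabine red). GYPC lies between 219 and 262 FPKM and EPB42 under 1, and the points of a gene lie close together against the distance between genes.

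The comparison of the treated with the untreated samples asked whether clofarabine changed these transcripts within 3 h. None of the 8 members was called higher or lower at a Benjamini-Hochberg adjusted p under 0.05 by edgeR's quasi-likelihood test, in which 2.57% of the 11761 tested genes were called (1.54% as higher and 1.03% as lower). None had an unadjusted p under 0.05, which 14.2% of all tested genes had. Neither DESeq2 nor limma-voom called a member, though DESeq2 gave SLC4A1 and EPB42 no adjusted p. The log2 fold changes were positive in 4 members and negative in 4, between −0.23 and 0.13, with a median of 0.0013 beside 0.0020 over all tested genes. The groups were apart, with no overlap of their libraries, in 3 of the 8 (GYPB, EPB41 and ANK1), beside 43.2% of all tested genes. For 6 of the 8, the libraries of 1 group lay further apart than the group means did.

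**Figure D2:**
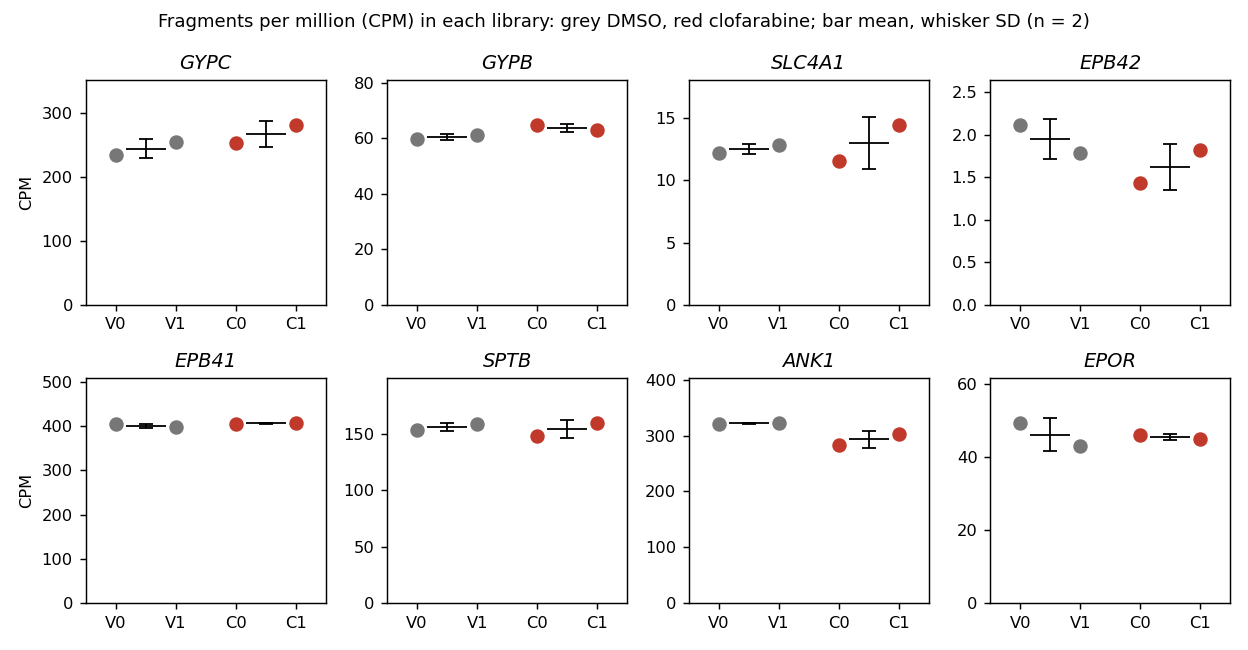
CPM (fragments scaled to a common library total) from 0 upward for each gene in DMSO (V0, V1, grey) and clofarabine (C0, C1, red), with bars for group means and whiskers for the SD (n = 2). ANK1 is lower in both clofarabine libraries, EPB41 is nearly level, and in SLC4A1 and EPB42 the spread within clofarabine is wide.

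Glycophorin C, a sialic acid-rich surface protein that carries the Gerbich blood group and binds protein 4.1, had a GYPC transcript level of 234 CPM in V0, 255 in V1, 253 in C0 and 282 in C1. C1 was the highest library, while C0 lay just under V1, so the groups overlapped. The mean was 244 ± 15.0 CPM in DMSO and 268 ± 20.5 CPM in clofarabine (SD, n = 2), a log2 fold change of 0.13 (95% interval −0.016 to 0.28, edgeR adjusted p = 0.429). That value rested on the choice of libraries: it was 0.21 without C0 (edgeR adjusted p = 0.0535), 0.19 without V1, 0.072 without V0 and 0.045 without C1. On this gene 14722 fragments were counted over the 4 libraries, so counting error was small against the distance of 0.16 (log2) between C1 and C0.

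Glycophorin B, which carries the S and s blood group antigens, stood at 59.6 CPM in V0, 61.2 in V1, 64.8 in C0 and 62.7 in C1. Both clofarabine libraries were above both DMSO libraries, by a narrow margin. The difference of GYPB did not pass the test (log2 fold change 0.076, SE 0.082, edgeR adjusted p = 0.755). Its 95% interval ran from a fold of 0.936 to 1.19. The log2 fold change became −0.073 (edgeR adjusted p = 0.751) once a trend of each library on transcript length was removed.

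Part of GYPB's sequence is shared with other genes. In the GENCODE v29 annotation (GRCh38), 15.4% of the 50-base stretches of GYPB's coding transcripts occurred in transcripts of another gene, 2.71% in those of its paralog GYPE, which lies near it on chromosome 4. A fragment from a shared stretch alone cannot be placed in 1 gene, and no label says how the authors' counting placed it, so the values of GYPB and GYPE are uncertain.

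GYPE, a gene whose protein product is not well established, stood at 88.3 CPM in V0, 80.5 in V1, 80.7 in C0 and 83.5 in C1 and was not called (log2 fold change −0.035, edgeR adjusted p = 0.909). The groups overlapped. On the FPKM scale GYPE looked different: it was 71.0 in V0 and 66.6 in V1 but 79.8 in C0 and 80.4 in C1, with no overlap. The log2 difference of GYPE on the log2(FPKM + 1) scale was 0.22 (limma adjusted p = 0.217). Its ratio of scaled fragments to FPKM was 16.3 in V0, 15.8 in V1, 13.2 in C0 and 13.5 in C1. The length term of GYPE was thus smaller in the clofarabine libraries, and why was not tested. The ratio of GYPB was 4.37 in all 4 libraries.

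**Figure D3:**
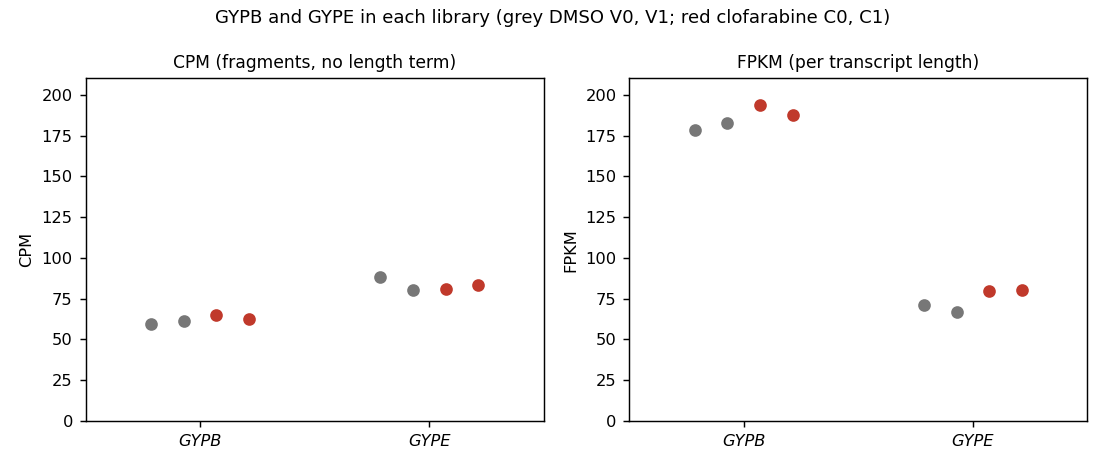
Values of GYPB and GYPE in each library as CPM (left) and as FPKM (right), both from 0 upward, with 1 point per library (DMSO grey, clofarabine red). GYPE is the higher of the pair by CPM and GYPB by FPKM, and the 2 clofarabine points of GYPE lie above its DMSO points by FPKM and among them by CPM.

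Band 3, which exchanges chloride for bicarbonate and anchors the skeleton, was sparsely expressed. SLC4A1 had 104 fragments in V0, 144 in V1, 153 in C0 and 335 in C1, which is 12.2, 12.8, 11.5 and 14.5 CPM. The DMSO libraries lay between the clofarabine libraries. The fold was 1.05 with a 95% interval of 0.830 to 1.32 (edgeR adjusted p = 0.914), and the log2 fold change went from 0.067 to −0.13 without C1 and to 0.21 without C0.

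Among the skeleton genes, ANK1 had the smallest p of the members. Ankyrin-1 links band 3 to beta-spectrin. Its transcript stood at 321 CPM in V0, 322 in V1, 283 in C0 and 303 in C1. Both clofarabine libraries were lower than both DMSO libraries, which were almost equal. ANK1 went from 322 ± 0.830 to 293 ± 14.6 CPM (SD, n = 2), a fold of 0.911 with a 95% interval of 0.829 to 1.00, which did not pass the test (log2 fold change −0.13, SE 0.066, unadjusted p = 0.0541, edgeR adjusted p = 0.364). Leaving out a library gave log2 fold changes between −0.19 (without C1) and −0.084 (without C0), and adjusted p-values over all alternatives lay between 0.121 and 0.881.

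EPB41 was the steadiest member. Protein 4.1 strengthens the junction of spectrin and actin. EPB41 stood at 404.6 CPM in V0, 397 in V1, 405 in C0 and 407 in C1, the lowest clofarabine library exceeding the highest DMSO library by under 1 CPM. The fold was 1.01 with a 95% interval of 0.924 to 1.11 (edgeR adjusted p = 0.94), and its sign turned with library sizes alone as the scaling, with the authors' scaled fragments and without V1. Its ratio of scaled fragments to FPKM was 73.2 in V1 and between 71.3 and 71.6 in the other libraries.

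SPTB, the gene of erythroid beta-spectrin, stood at 153 CPM in V0, 159 in V1, 148 in C0 and 159.5 in C1. The clofarabine libraries held both the lowest and the highest value. Its fold of 0.988 had a 95% interval of 0.895 to 1.09 (edgeR adjusted p = 0.949). The FPKM of ANK1 divided by that of SPTB was 1.75 in V0, 1.70 in V1, 1.585 in C0 and 1.585 in C1, with no overlap. Of single tested genes, 43.2% had no overlap in CPM. Other ratios were formed too, some with overlap and some without. Neither ANK1 nor SPTB was called, and a change of their ratio was not tested.

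EPB42 was near the limit of the depth. Protein 4.2 stabilises the contact of ankyrin with band 3. EPB42 had 18 fragments in V0, 20 in V1, 19 in C0 and 42 in C1, or 2.12, 1.78, 1.43 and 1.82 CPM. The groups overlapped. The 95% interval of the fold ran from 0.463 to 1.57 (edgeR adjusted p = 0.879), so it did not exclude a rise of 1.5-fold or a larger fall. Its log2 fold change was −0.23, and 0.17 with libraries thinned to equal depth.

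EPOR, the receptor through which erythropoietin keeps erythroid progenitors alive, stood at 49.2 CPM in V0, 42.8 in V1, 45.9 in C0 and 44.8 in C1. Both clofarabine libraries fell between the DMSO libraries, and V0 and V1 were 0.20 apart on the log2 scale. The fold was 0.989 with a 95% interval of 0.862 to 1.13 (edgeR adjusted p = 0.969), and the log2 fold change was −0.13 without V1 and 0.083 without V0.

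**Figure D4:**
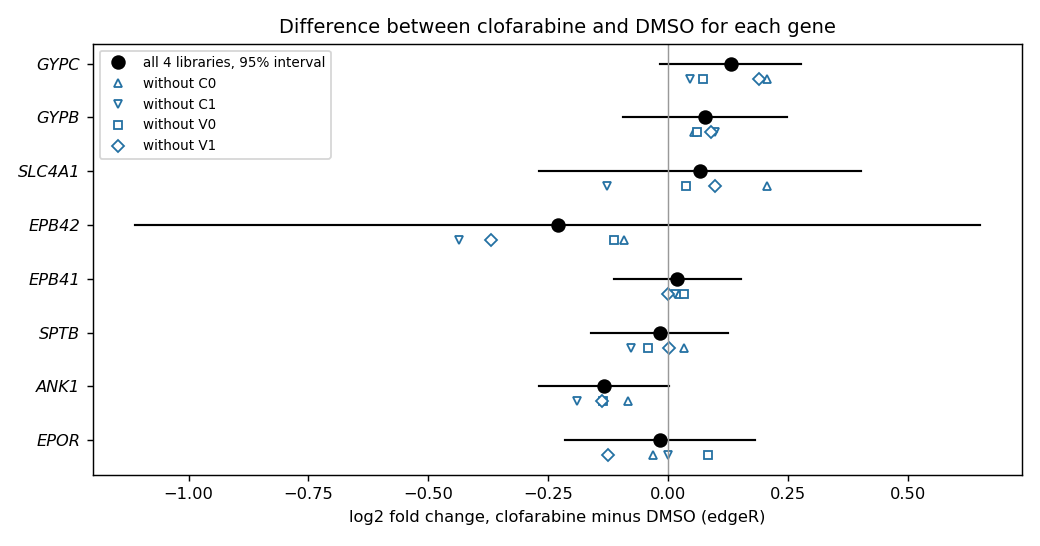
Log2 fold change (clofarabine minus DMSO, edgeR) with its 95% interval for each gene from all 4 libraries (black), and the value without each library in turn (blue). All 8 intervals include 0. The interval of EPB42 is the widest, from −1.11 to 0.65, and that of EPB41 the narrowest, from −0.11 to 0.15.

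Other transcripts overlap some of these genes. In the same annotation, 23.0% of the exonic bases of SPTB are shared with PLEKHG3 on the other strand and 3.1% of those of EPB41 with TMEM200B on the other strand, while EPOR and its neighbour RGL3 share 2 bases. ANK1 shares 7.8% of its exonic bases with an antisense gene, AC113133.1, that was not analysed here. In these libraries PLEKHG3 had between 2 and 4 fragments and RGL3 had none, against 1301 or more for SPTB and 418 or more for EPOR. For TMEM200B the DMSO mean was 36.7 ± 3.36 CPM and the clofarabine mean 35.4 ± 2.00 CPM (SD, n = 2; log2 fold change −0.043, edgeR adjusted p = 0.916; 0.049 without V0). Read in the direction of the transcript, the 50-base stretches of the coding transcripts of GYPC, SPTB, ANK1 and EPOR occurred in no other gene's transcripts. Reverse matches were not searched, so the overlaps on the other strand are not covered by this. For EPB42 13.2% were shared with an overlapping non-coding transcript that was not analysed here.

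The rest of the network was described by 3 lists: other genes of the skeleton and its anchors, other surface proteins, and EPO receptor signalling. Of 22 tested skeleton genes, edgeR called none, nor did DESeq2 or limma-voom. An unadjusted edgeR p under 0.05 was reached by 4 of them, beside 14.2% of all tested genes. The median log2 fold change of the 22 was −0.042, with 14 negative and 8 positive values. Of all 11761 tested genes, 5813 were negative. The member of smallest p was SPTBN1, the beta-spectrin of other tissues, at 210 CPM in V0, 197 in V1, 172 in C0 and 185 in C1 (log2 fold change −0.19, SE 0.068, edgeR adjusted p = 0.189). Both of its clofarabine libraries were below its DMSO libraries.

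Of 32 tested glycophorins, blood group carriers and transporters, edgeR, DESeq2 and limma-voom each called none. An unadjusted edgeR p under 0.05 was reached by 5, beside 14.2% of all tested genes. DESeq2 gave KCNN4 and DARC no adjusted p, so it could not call them. The median of the list was −0.079, with 24 negative values and 8 positive, where 5813 of all 11761 tested genes were negative. KCNN4, the calcium-activated potassium channel of red cells, had the smallest p, at 10.8 CPM in V0, 15.2 in V1, 7.31 in C0 and 9.78 in C1, with no overlap (log2 fold change −0.60, SE 0.19, edgeR adjusted p = 0.116). It was called in 7 of 17 alternatives, among them without C1 (log2 fold change −0.85, adjusted p = 0.0166) and without V0 (log2 fold change −0.80, adjusted p = 0.00761), and stood at −0.33 without V1. DARC, the Duffy antigen gene, chosen here after its values were seen, had the largest positive value of the list from few fragments, 4 in V0, 1 in V1, 17 in C0 and 20 in C1 (edgeR adjusted p = 0.217).

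Among 19 tested genes of EPO receptor signalling the median was −0.10, with 16 negative values, beside 5813 negative of all 11761 tested genes. Of the 19 genes, 2 fell and none rose, where 1.03% of all tested genes were called lower and 1.54% higher. Both are known targets of STAT5, but a change in STAT5 activity was not tested. The feedback genes of the same list were not called: CISH (log2 fold change −0.23, edgeR adjusted p = 0.180), SOCS1 (−0.16, 0.869), SOCS2 (−0.049, 0.834) and SOCS3 (−0.10, 0.787). PIM1, a survival kinase, stood at 421 CPM in V0, 425 in V1, 342 in C0 and 362 in C1. It fell from 423 ± 2.66 to 352 ± 13.7 CPM (SD, n = 2; log2 fold change −0.26, SE 0.065, edgeR adjusted p = 0.0296). BCL2L1, whose product BCL-XL blocks cell death, stood at 231.3 CPM in V0, 231 in V1, 187 in C0 and 197 in C1, and fell (log2 fold change −0.27, SE 0.065, edgeR adjusted p = 0.0291). The clofarabine libraries were below the DMSO libraries in both genes. Neither call held without V0 (adjusted p = 0.191 for PIM1 and 0.18 for BCL2L1), without V1 (0.32 and 0.263) or on the log2(FPKM + 1) scale (0.15 and 0.137). The kinase JAK2 had a log2 fold change of −0.091 (edgeR adjusted p = 0.776), and the ligand gene EPO had 1 fragment in each DMSO library and none in clofarabine.

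**Figure D5:**
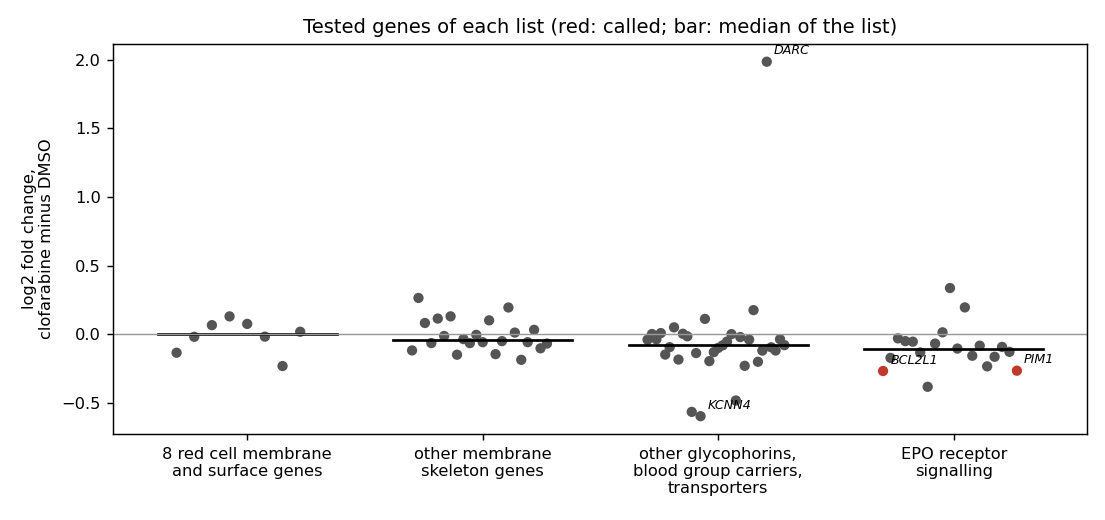
Log2 fold change (clofarabine minus DMSO, edgeR) of every tested gene of the 8 members and of the 3 lists, with a bar at each median. The 2 called genes, PIM1 and BCL2L1, are red and belong to EPO receptor signalling, where 16 of 19 points lie below 0, and the 8 members are spread evenly about 0.

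Likeness of pattern was measured for ANK1, the member of smallest p, as the root mean square distance of log2 CPM centred over the 4 libraries, among 73 tested list genes. ICAM4, the Landsteiner-Wiener blood group gene, was nearest at 0.023, followed by STAT5B, a transcription factor of EPO signalling, at 0.026, and FLOT2, a membrane raft protein gene, at 0.027. All 3 were lower in both clofarabine libraries than in both DMSO libraries. They were picked for likeness to ANK1, which is lower in the same way, so this direction came with the choice. None was called (edgeR adjusted p = 0.675 for ICAM4, 0.364 for STAT5B and 0.556 for FLOT2). With 4 libraries such a likeness is a description only.

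GATA1, a factor known to drive many erythroid genes, fell: it stood at 227 CPM in V0, 222 in V1, 180 in C0 and 197 in C1 (log2 fold change −0.25, SE 0.067, edgeR adjusted p = 0.0445). Its call was lost without C0 (adjusted p = 0.112), V0 (0.263) or V1 (0.254). The letters that GATA factors prefer were looked for in the 250 bases before each RefSeq start (GRCh38.p14), as AGATAA or TGATAA on either strand. CACCC, the core of KLF1 sites, was looked for likewise on either strand. KLF1 was lower in both clofarabine libraries than in both DMSO libraries but was not called (log2 fold change −0.19, edgeR adjusted p = 0.179). RefSeq promoter entries were found for 6 of the 8 members, with 9 windows in all, since GYPB, SPTB and EPB41 have 2 each and those of GYPB overlap. AGATAA was present in 4 of the 9 windows, 1 each of EPB42, EPOR, GYPB and SPTB, and in 9.17% of all 35116 promoter windows. TGATAA was in none of the 9 windows. At least 1 of these 2 forms was in 14.6% of all windows. CACCC was present in 5 of the 9 windows, those of EPB42 and GYPC, 1 of GYPB and both of SPTB, and in 54.7% of all windows. The windows of EPOR, at chr19:11384315-11384564 (minus strand), and EPB42, at chr15:43221019-43221268 (minus strand), are shown because both hold AGATAA, one in the receptor gene and the other in the member of lowest level. Capitals mark AGATAA or its reverse TTATCT, and CACCC or its reverse GGGTG.
EPOR: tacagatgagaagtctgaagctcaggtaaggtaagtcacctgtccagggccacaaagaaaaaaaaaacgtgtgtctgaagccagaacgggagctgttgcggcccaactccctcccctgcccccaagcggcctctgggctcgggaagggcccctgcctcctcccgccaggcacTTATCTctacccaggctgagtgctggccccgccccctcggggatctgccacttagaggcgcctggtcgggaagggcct
EPB42: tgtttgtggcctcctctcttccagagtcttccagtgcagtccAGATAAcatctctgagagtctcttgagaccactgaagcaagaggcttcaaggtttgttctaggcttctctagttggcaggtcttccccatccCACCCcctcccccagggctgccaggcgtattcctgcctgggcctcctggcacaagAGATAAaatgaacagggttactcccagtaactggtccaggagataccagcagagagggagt
EPOR holds 1 match to AGATAA, on the reverse strand, and EPB42 holds 2, with 1 match to CACCC. The 4 genes with AGATAA had edgeR adjusted p = 0.755 (GYPB), 0.879 (EPB42), 0.949 (SPTB) and 0.969 (EPOR). None of the 8 members was called, with or without a match, so the calls cannot tell the 2 kinds apart. A link to the fall of GATA1 was not tested. A match is a description of the letters and does not show a bound site.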

How the data were processed

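RNA of 4 K562 samples was sequenced from directional libraries of total RNA, per the labels' protocols. The submitters' processing notes name cutadapt 1.5, TopHat2 2.0.13, Cuffdiff 2.2.1 and hg19. Annotation, strand setting and RNA selection: no source used here states them. The authors deposited estimated counts of fragments for each gene and library. Per the file headers there are also scaled fragments, a signal that equals each count times its library's factor, and FPKM. Library numbers could not be tied to the labels' replicates, so each library was used only as a member of its group.

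Counts were rounded (431 to 483 genes per library changed), filtered by edgeR's filterByExpr (minimum count 10), scaled by TMM and compared between the groups, without covariates, by edgeR 4.0.16's quasi-likelihood test (R 4.3.3), adjusted over all 11761 tested genes. The SE is the log2 fold change over the square root of F. On simulated data of this comparison with 11761 genes, 68 of 100 genes changed by 0.5 and 91 of 100 changed by 1 on the log2 scale were called, with 6 false calls. Every simulated gene had the same spread between libraries (coefficient of variation 6.01%). Differences in spread between genes were left out, so these figures need not hold for the real data. DESeq2 1.42.0 and limma 3.58.1 were alternatives. The libraries of each group differed by more than sampling noise (chi-square per degree of freedom 6.55 between C0 and C1, 2.73 between V0 and V1).

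The members and lists were chosen with earlier results of these data known. The naming rule took all 8 members, the paralog GYPE, from each list up to 2 called genes per direction or else the gene of smallest p, and the 3 list genes nearest in pattern to the member of smallest p. Other genes are named as context, chosen after their values were seen, and some results are not reported here. GENCODE v29 and RefSeq (GRCh38) served for shared sequence, overlaps and promoters only, since hg19 is the authors' build.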

Additional observations from a re-analysis of the deposited data

How the results depend on the processing

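The members' count of 0 higher and 0 lower calls was the same in all 19 alternatives: other scalings, filters, tests and units, each library left out, the replicate block, a length trend removed, equal depth, and thresholds of 0.01 and 0.1. With DESeq2, SLC4A1 and EPB42 had no adjusted p. The sign turned in GYPB (length trend removed), SLC4A1 (without C1), EPB42 (equal depth), EPOR (without V0), EPB41 and SPTB (3 alternatives each), and in none of the alternatives for GYPC and ANK1.

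Of the lists, EPO receptor signalling had 0 falls on both FPKM scales and at a threshold of 0.01 in place of 2, and between 0 and 3 with a library left out. The surface list had 1 fall, KCNN4, in place of 0 with library sizes alone, the authors' scaled fragments, no filter, the length trend removed and the replicate block, and 0 or 1 with a library left out. KCNN4 then had log2 fold changes of −0.64 (library sizes alone, authors' scaled fragments), −0.59 (no filter), −0.60 (length trend removed) and −0.61 (block). Under the block the skeleton list also had 1 fall, SPTBN1 (−0.18, adjusted p = 0.0362). The block changed no other call named here: the calls of NFE2, GATA1, HBA2, PIM1 and BCL2L1 held under it. The calls of GATA1 and HBA2 were also lost with upper quartile scaling (adjusted p = 0.0658 and 0.0615), on log2(FPKM + 1) (0.189 and 0.321) and on log2(FPKM + 0.1) (0.182 and 0.316). That of GATA1 was further lost with DESeq2 (0.0632) and at equal depth (0.0804). NFE2 lost its call on log2(FPKM + 1) (0.0504) and in no other alternative fit. The deviations of same-numbered libraries had a correlation of −0.0038 across genes, and the numbers are not shown to pair the samples. No symbol joined a member, so summing joined symbols could not be run. Without a library, its group has 1 sample, which is assumed to vary like the other group. Depth limits EPB42 and SLC4A1 most. Intervals from counts cover these libraries alone.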
